A study of Mus musculus with 28 samples.

Results

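The cells described here are the *Gfap*+ cells of the subventricular zone (EZ-SEZ/SVZ) of young and old mice, compared between 24 months and 1 month of age. They are 7 of the 22 single cells, and of the 28 samples, of the series, and were taken by their labels, which give 5 cells of 24 months and 2 cells of 1 month. Genes were described when their FPKM (a fragment count divided by transcript length and by the cell's mapped total) was above 1 in at least 3 of these 7 cells, which left 6256 of the 37974 genes of the table. Since 5 of the 7 cells were old, a gene above 1 FPKM in both young cells alone could not pass, and no gene that passed was listed at 0 in all cells of 24 months while counted as lower.

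All mice were C57BL/6, and no transgene, deletion or treatment is named for any group. SVZ tissue was digested with papain, cells were sorted on size and complexity, and cDNA was made from picked single cells with Smart-seq2, a full-length method whose reads carry no strand. Cells in which qPCR of the cDNA read stem or progenitor markers, *Gfap* among them, were kept for sequencing. Their types, *Gfap*+, *Prom1*+ and *Dlx2*+/*Dcx*+, were then set by clustering the sequenced transcriptomes and by signature genes, so the marker levels below are not independent of the type. SVZ tissue of 3 weeks and of 18 months was also sequenced, with 3 samples per age, so the ages of tissue and cells differ. No animal is named for a cell, so each age of *Gfap*+ cells counts as 1 sample, no test was made between them, and every difference between the ages below is a description of these 7 cells.

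Oligodendrocytes wrap axons in myelin, a membrane rich in cholesterol and galactolipids and packed with proteins such as MBP and CLDN11. They arise from precursor cells that express *Pdgfra* and *Cspg4*, pass through a short newly formed stage and then keep their myelin for a long time, at a high cost in lipid synthesis, iron and antioxidant enzymes. *Gfap*, an intermediate filament protein, is best known from astrocytes and from neural stem cells of the SVZ.

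The *Gfap* assay is shown because this gene names the cells and was among the qPCR markers used to pick them. In the forward and reverse oligos, capitals mark the bases that lie in the later of the 2 exons each one spans, exons 6 and 7 for the forward oligo and exons 8 and 9 for the reverse one, while the probe lies in exon 7. All 3 match coding exons of *Gfap* on chromosome 11 (GRCm38, minus strand), between 102888713 and 102893042, and frame a product of 147 bases. The forward oligo and the probe match 2 of the 3 annotated transcripts and the reverse oligo 1 of the 3, so a cell using another transcript end would not be read by this assay.
Gfap forward: gaaaaccgCATCACCATTCC
Gfap probe: agactttctccaacctccagatccga
Gfap reverse: CTTAATGACctcaccatcccg

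*Gfap* was listed at 96.1, 48.7, 75.3, 194 and 160.1 FPKM in the 5 cells of 24 months and at 187 and 116 FPKM in the 2 cells of 1 month, so the ages overlapped. It was 0 in all 6 *Prom1*+ cells and at most 0.332 FPKM in the 9 *Dlx2*+/*Dcx*+ cells. *Mag*, a myelin adhesion protein facing the axon, was at 2099.8, 2573, 1949.7, 2102 and 924 FPKM at 24 months and at 4959.6 and 1755 FPKM at 1 month. *Sox10*, the transcription factor of the oligodendrocyte lineage, was uneven, at 9.68, 3.73, 7.92, 113 and 178 FPKM against 0.842 and 61.6 FPKM. All 3 markers were thus present at both ages, although the *Sox10* value of the first young cell corresponds to about 1 fragment (1.03 by the estimate below).

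The cells carried the genes of mature, myelinating oligodendrocytes at far higher levels than those of precursors or of astrocytes. Of 24 compact myelin and myelin sheath genes 22 passed the filter, and *Cldn11*, the tight junction protein of central myelin, lay between 5011 and 25026 FPKM in the 7 cells. Of 18 precursor genes only *Sema5a* passed, and 10 were listed at 0 in all 7 cells. The precursor list summed to 0.851 to 142 FPKM at 24 months and to 4.23 and 28.7 FPKM at 1 month. The highest sums came from cell 5 of 24 months, with the proteoglycan genes *Cspg5* and *Ptprz1* at 97.7 and 42.8 FPKM, and from cell 2, with *Ptprz1* and *Sema5a* at 56.5 and 28.5 FPKM. Of 20 astrocyte markers 5 passed, *Gfap* itself, *Aldoc*, *Cbs*, *Slc1a3* and *Slc1a2*. Apart from *Gfap*, each of these was at 0 or near 1 FPKM in some cells of each age. Astrocyte markers summed to 284 to 1243 FPKM at 24 months and 189 and 550.3 FPKM at 1 month, against 58335 to 130022 FPKM and 96154 and 147800 FPKM for the compact myelin list. *Gfap* made up 187 of the 189 FPKM in cell 1 of 1 month. Microglia markers were at 0 in all 7 cells for 15 of 20 genes and summed to 1.48 to 122 FPKM at 24 months and to 2.21 and 3.49 FPKM at 1 month. The highest microglial sum came from *Tyrobp*, a signalling adaptor of myeloid cells, at 118 FPKM in cell 1 of 24 months and at 0 in the other 6 cells. Among endothelial and pericyte markers only *Slc2a1*, a glucose transporter, passed, at 257 to 738 FPKM at 24 months and at 0 and 273 FPKM at 1 month. Ependymal markers summed to at most 11.2 FPKM and none passed the filter. Neuron markers, of which 3 of 20 passed and none was counted, summed to 36.5 to 480.4 FPKM at 24 months and to 127 and 8.51 FPKM at 1 month, mostly from *Tubb3*, *Snhg11* and, in cell 5 of 24 months alone, *Penk*. Of 16 neuroblast markers 4 passed, with sums of 12.3 to 480.7 FPKM and of 28.1 and 9.42 FPKM, and *Dlx2* stayed between 1.17 and 2.79 FPKM in all 7 cells. The part of RNA from other cell types in the differences below was not tested.

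**Figure D1:**
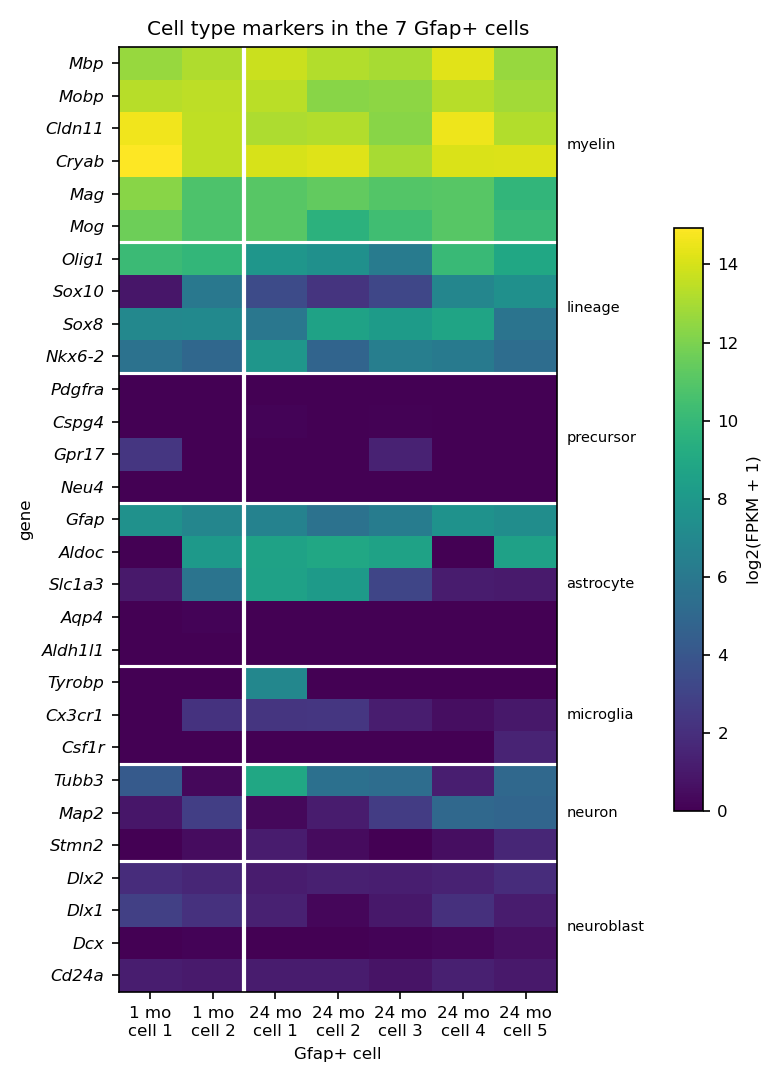
Level of marker genes (rows, by cell type) in each of the 7 *Gfap*+ cells (columns), as log2(FPKM + 1) on a colour scale. Myelin genes are high in every cell of both ages, whereas the 4 precursor markers drawn reach at most 4.23 FPKM and most microglia and neuroblast markers are at or near 0.

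The 2 young cells were not of equal depth. By the most common low value of FPKM times transcript length, cell 1 of 1 month held an estimated 441000 fragments and cell 2 held 2045000, against 1195000 to 2306000 in the cells of 24 months, and genes above 1 FPKM numbered 4398 and 5491 against 5069 to 6061. In that shallow cell a single fragment was worth 1 FPKM in a transcript of 2268 bases, and more in shorter ones. Transcripts of the mitochondrial genome took 35.9% and 31.9% of all FPKM in the young cells and 15.4% to 22.3% in the old ones, without overlap. *Xist* was between 16.8 and 34.4 FPKM in all 7 cells. Pearson's r of log2(FPKM + 1) between cells, over 6256 genes that are not independent, was 0.368 to 0.419 within 24 months, 0.367 between the 2 young cells and 0.347 to 0.389 across the ages. The correlations across the ages thus overlapped those within an age. The part of depth in the differences was not tested, and counts after scaling without the mitochondrial genes are given below.

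A gene was counted as higher (or lower) at 24 months when all 5 old cells lay above (or below) both young cells and the difference of mean log2(FPKM + 1) was above 1 in size. Higher were 281 genes, 4.49% of the 6256, and lower 234 genes, 3.74%. These percentages are the background for the list counts below. Over all 6256 genes the median difference was 0.26, and 0.13 without the shallow cell. Of the 281 higher genes 68 were listed at 0 in both young cells and 142 had no young cell above 1 FPKM. With every value below 3 fragments of the shallow cell raised to that floor, an alternative chosen after the data were examined, 184 higher and 208 lower genes were left, all among those counted above. With only the deeper young cell, the gap stayed above 1 for 273 of the higher and 217 of the lower genes, but the share of higher among all counted genes turned from 54.6% to 39.7%, and it was 40.6% after quantile normalization, 46.8% with no filter on low values (290 higher and 330 lower genes) and 46.9% with the floor. Scaled to the sum without mitochondrial genes, the share was 48.1%, with 263 higher and 284 lower genes, among them 255 of the 281 and 220 of the 234. Of 33 named higher genes 25 were also counted with the floor, all but *Aif1l*, *Lss*, *Serpina3n*, *Wipi1*, *Fanca*, *Psme2*, *Prim1* and *Hjurp*, and of 39 named lower genes 35, all but *Mt2*, *Dlx1*, *Cks2* and *Cdca8*.

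**Figure D2:**
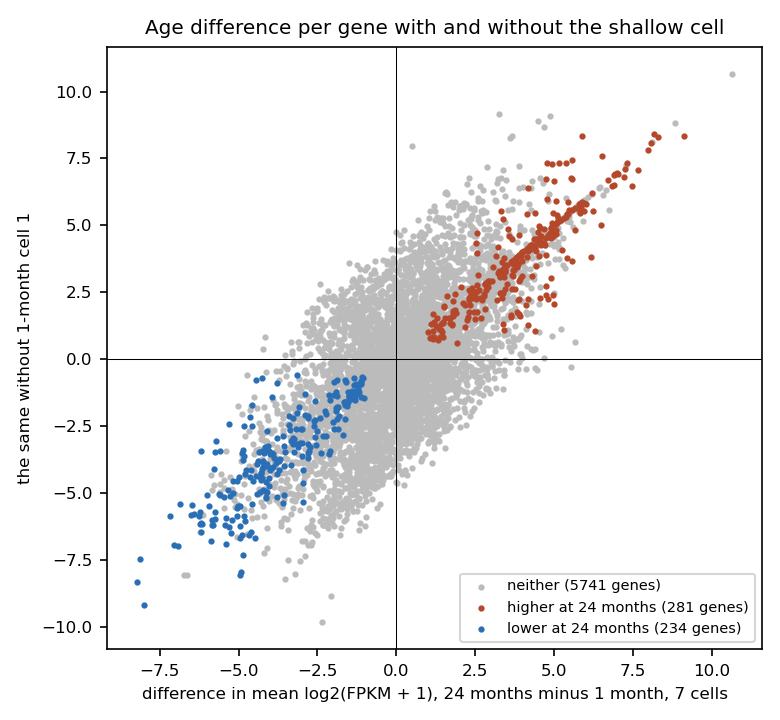
Age difference of each of the 6256 genes, 24 months minus 1 month on the log2(FPKM + 1) scale, with both young cells (x axis) and without the shallow young cell (y axis); genes counted as higher or lower are coloured. Of 281 higher genes 273 keep a difference above 1 without the shallow cell, and of 234 lower genes 217 keep one below -1.

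Some genes tied to age or injury in oligodendrocytes were higher at 24 months. Of the 40 genes of this list, which was written with earlier results of these data known, 15 passed the filter, 12 were listed at 0 in all 7 cells, 3 were counted as higher and 1 as lower. The 15 had a median difference 2.32 above that of all genes, 3.10 without the shallow cell, and between 1.18 and 3.10 over 14 alternatives. This median describes the members that passed a filter which old cells alone could meet, and supports nothing on the list as a whole. The list summed to 3237 to 9409.7 FPKM in the old cells and to 2786 and 549.9 FPKM in the young ones.

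*C4b*, a complement component that tags surfaces for clearance, was at 274, 274, 204, 1492 and 205 FPKM at 24 months. At 1 month it was at 0.408 FPKM in the shallow cell, about 1 fragment, and at 0 in the deeper one. Every old cell thus held *C4b* at a level that neither young cell approached, and the 15 cells of the other types held at most 1.47 FPKM. The gene lies on chromosome 17 (34728380 to 34743882, minus strand) beside its near copy *C4a*, listed at 0 to 18.3 FPKM in the same cells, and reads of the pair may have been split between them.

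*Serpina3n*, a secreted inhibitor of serine proteases, was at 298, 169, 1.09, 277 and 70.2 FPKM at 24 months and at 0 in both young cells. It belongs to a family of close copies, and cell 3 of 24 months was near 0. *Sparc*, a secreted matrix-binding glycoprotein, was at 3356, 1521, 667, 469.9 and 457 FPKM at 24 months and at 0 and 1.94 FPKM at 1 month. All 5 old cells lay far above both young cells for *Sparc*, and this separation held in each of the 14 alternatives, as it did for *C4b*, while *Serpina3n* was counted in 13 of them.

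Among members that overlapped between the ages, named here after their values were seen, *B2m*, the light chain of MHC class I, was at 0, 1286, 1267, 1240.1 and 782 FPKM at 24 months and at 0 in both young cells. The alarmin gene *Il33* was at 0.285, 315, 0, 1186 and 895 FPKM at 24 months and also at 0 in both young cells. The interferon-inducible genes *Ifitm3*, *Bst2*, *Ifit3* and *Oasl2*, chosen in the same way, were listed at 0 in all 7 cells. 

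*Apod*, a lipid-binding lipocalin of mature oligodendrocytes, was at 10838, 13874, 12016, 9724 and 6032 FPKM at 24 months and at 1144 and 4415 FPKM at 1 month. The difference was 2.17, or 1.20 against the deeper young cell alone, with no overlap of the ages. In the cells of the other types *Apod* reached at most 40.2 FPKM. The late mature list as a whole, with 34 of 36 genes passing, held 1 gene counted as higher and 1 as lower, and its median lay 0.12 below that of all genes (difference of the medians -0.12). Its summed level was 87152 to 161644 FPKM in the old cells and 68154 and 83725 FPKM in the young ones, which did not overlap. *Evi2a*, a membrane protein gene of this list, was at 97.1 to 682 FPKM at 24 months and at 2188 and 979 FPKM at 1 month. It lies inside *Nf1* on the opposite strand, so reads of the overlap could not be assigned by strand.

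**Figure D3:**
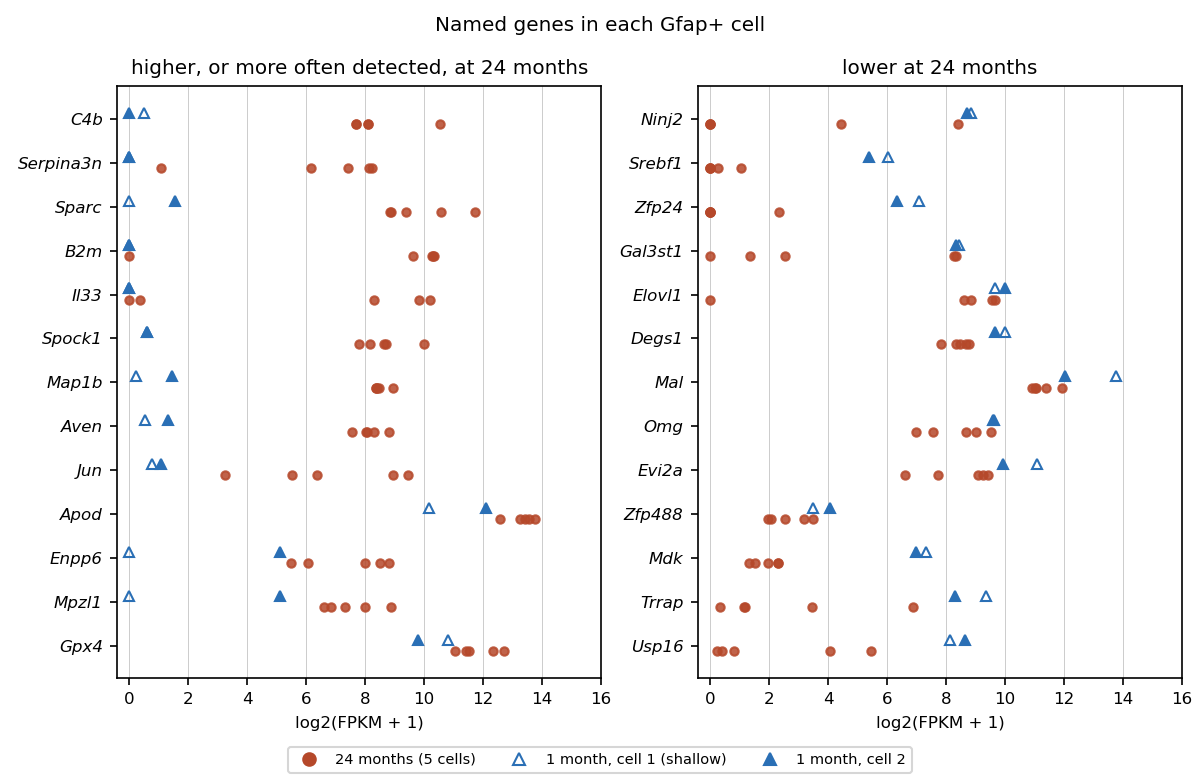
Level of named genes in each *Gfap*+ cell as log2(FPKM + 1), with old cells as circles, the shallow young cell as an open triangle and the deeper one as a filled triangle, with genes that are higher or more often detected at 24 months on the left and lower genes on the right. For *C4b*, *Sparc*, *Spock1* and *Map1b* the 5 old cells lie apart from both young cells, and for *Srebf1* and *Mdk* the order is reversed.

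Genes of the myelin sheath were abundant at both ages and mostly overlapped. Of the 22 compact myelin genes that passed none was counted as higher and only *Mal* as lower, yet the list's median lay 0.88 below that of all genes (-0.88), or 0.37 below without the shallow cell (-0.37), and it was negative in 14 of 14 alternatives. *Mal*, a proteolipid of myelin membrane traffic, was at 2125, 2655, 1947, 3871 and 2096 FPKM at 24 months and at 14058 and 4171 FPKM at 1 month. Its difference of -1.64 shrank to -0.76 without the shallow cell, and the ages did not overlap in either case. *Mbp*, the protein that compacts the cytoplasmic faces of myelin, was at 6464 to 19572 FPKM at 24 months and at 6346 and 9063 FPKM at 1 month. *Mog*, *Cldn11* and *Mobp*, which build the outer sheath and its tight junctions and compact membrane, overlapped between the ages as well.

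Of 19 genes of the paranode, axon contact and glial channels that passed, 1 was counted as higher and 2, *Ninj2* and *Omg*, as lower. *Ninj2*, an adhesion molecule of glia, was at 20.5, 0, 0, 0 and 339 FPKM against 465 and 420.1 FPKM. *Omg*, an oligodendrocyte glycoprotein that limits neurite growth and also lies inside *Nf1*, was at 125 to 732 FPKM against 784 and 777 FPKM. 

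Genes of the newly formed stage were found in the old cells too. *Enpp6*, a choline phosphodiesterase used as a marker of newly formed oligodendrocytes, was at 254, 443, 44, 65.2 and 361 FPKM at 24 months and at 0 and 33.3 FPKM at 1 month. *Mpzl1*, a receptor of the myelin protein zero family, was at 472, 254, 95.5, 113 and 157 FPKM at 24 months and at 0 and 33.7 FPKM at 1 month. These were the 2 genes counted as higher among 8 of 19 of the list that passed, with none lower, and the median of the 8 changed sign without the shallow cell, from 0.41 below that of all genes (-0.41) to 1.22 above it. *Bcas1*, another gene of this stage, was at 172 to 566 FPKM at 24 months and at 1168 and 468 FPKM at 1 month. *Gpr17*, a receptor of committed precursors, was at 0 in 5 of the 7 cells and reached 1.71 and 4.23 FPKM in the others.

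Among regulators of the lineage, 13 of 14 passed, none was higher and 2 were lower. *Zfp24* (listed as *Zfp191*), a zinc finger factor needed for myelination, was at 0, 0, 0, 0 and 4.12 FPKM at 24 months and at 135 and 80.0 FPKM at 1 month. *Zfp488*, a partner of OLIG2, was at 2.92 to 10.1 FPKM against 10.3 and 15.8 FPKM, a small gap. *Olig1* was at 72.8 to 1100.4 FPKM against 1169 and 949 FPKM, which overlapped. 

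Of 39 genes of lipid and cholesterol synthesis 35 passed, with 1 counted as higher and 4 as lower, and 13 of the 35 had a positive difference. The summed list overlapped between the ages, at 4873 to 11700 FPKM in the old cells and 10095 and 12430 FPKM in the young ones. The median of the list lay 0.56 below that of all genes (-0.56), 1.48 below without the shallow cell (-1.48), and it was negative in 14 of 14 alternatives. *Srebf1*, the master regulator of fatty acid synthesis genes, was at 1.07, 0.21, 0, 0 and 0 FPKM at 24 months and at 64.6 and 40.9 FPKM at 1 month, about 122 and 359.5 fragments. All old cells were thus near or at 0 for a gene that both young cells read well. *Degs1*, the desaturase of the last step of ceramide synthesis, was at 413, 439, 325, 352 and 224 FPKM against 1012 and 805 FPKM (difference -1.40). *Gal3st1*, which makes the myelin lipid sulfatide, was at 309.8, 4.84, 0, 322 and 1.59 FPKM against 350.1 and 325 FPKM, so 2 of the old cells were close to the young ones. *Elovl1*, an elongase of very long chain fatty acids that overlaps *Cdc20* on the other strand, was at 0 to 802 FPKM against 815 and 1027 FPKM. *Lss*, an enzyme of the cholesterol pathway, was at 13.2, 24.3, 0.85, 5.64 and 1.22 FPKM against 0 and 0.537 FPKM.

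Iron and antioxidant genes were among the most abundant of these cells. *Fth1*, the heavy chain of ferritin, was at 48984, 36972, 38109.8, 60510.0 and 53767 FPKM at 24 months and at 22024 and 35207 FPKM at 1 month, without overlap but with a difference of 0.75. *Trf*, the iron carrier transferrin, was at 19487 to 45957 FPKM against 15082 and 20114 FPKM. *Gpx4*, the peroxidase that protects membrane lipids, was at 6659, 2707, 2088, 5146 and 2945 FPKM against 1780.0 and 888 FPKM, without overlap. The summed list, to which *Fth1* and *Trf* gave most, reached 66286 to 119055 FPKM in the old cells and 48424 and 62409 FPKM in the young ones. The median of the list, in which each gene counts alike, went the other way and lay 0.30 below that of all genes (-0.30), negative in 13 of 14 alternatives. Of its 25 genes that passed, *Gpx4* was the 1 counted as higher and *Hmox2* and the metallothionein gene *Mt2* were the 2 counted as lower.

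Of 72 subunits of the respiratory chain encoded in the nucleus, out of 75, 7 were counted as higher and 2 as lower. Higher were *Ndufa2*, *Ndufa7*, *Ndufs4*, *Uqcrc2*, *Uqcrh*, *Cox5b* and *Cox7c*, and lower *Ndufv1* and *Atp5j2*. *Ndufa7*, of complex I, was at 570.2, 683, 164, 684 and 168 FPKM at 24 months and at 54.1 and 2.54 FPKM at 1 month. *Uqcrc2*, of complex III, was at 122 to 321 FPKM against 27.1 and 15.3 FPKM. *Ndufv1*, of complex I, was at 2.32 to 191 FPKM against 258 and 279 FPKM. The median of the list lay 0.24 above that of all genes, and 0.12 above without the shallow cell. It kept its sign in 13 of 14 alternatives, with a range from -1.08 to 0.59. The transcripts of the mitochondrial genome took the smaller share in the old cells given above.

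Of protein folding and endoplasmic reticulum genes 26 of 39 passed, with none counted as higher and 2 as lower. The median of the list lay 0.89 below that of all genes (-0.89) and was negative in 14 of 14 alternatives. Its summed level overlapped between the ages, at 4087 to 8835 FPKM in the old cells and 8084 and 8839 FPKM in the young ones. *Hspd1*, the mitochondrial chaperonin, was at most 78.9 FPKM in the old cells against 219.8 and 98.8 FPKM, and shares its locus head to head with *Hspe1*. *Syvn1*, a ubiquitin ligase of the endoplasmic reticulum, was at 1.23 FPKM in 1 old cell, at 0 in the other 4, and at 101 and 2.14 FPKM in the young cells. Autophagy genes had 33 of 50 passing, with *Wipi1* higher and *Wipi2*, *Pik3c3* and *Calcoco1* lower, and a median 0.80 above that of all genes that kept its sign in 13 of 14 alternatives. None of 35 lysosome genes was counted in either direction. *Pik3c3*, the lipid kinase that starts autophagosomes, was at 0, 0, 0.93, 3.21 and 2.97 FPKM against 91.9 and 11.7 FPKM. Of 32 proteasome subunits only *Psme2* was counted, as higher, at 4.36 to 1731 FPKM against 0 and 0 FPKM.

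Of 80 DNA repair genes 24 passed, with *Fanca* higher and *Tdg*, *Ercc2* and *Xrcc6* lower, and the sign of the list's median against all genes turned from -0.42 to 0.41 without the shallow cell. *Fanca*, a DNA crosslink repair gene, was at 107, 0.203, 1.06, 9.36 and 0.180 FPKM against 0 and 0 FPKM, so 2 old cells were near 0. *Tdg*, a glycosylase of base excision repair and DNA demethylation, was at 0, 0, 22.3, 0.286 and 7.16 FPKM against 49.4 and 67.5 FPKM. *Xrcc6*, a subunit of the Ku complex that binds broken DNA ends, was at 0.202 to 19.3 FPKM against 32.1 and 19.6 FPKM, so the nearest cells were almost equal.

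Of 11 immediate early genes that passed, *Jun* alone was counted, as higher, at 495, 80.6, 8.56, 696 and 44.9 FPKM against 0.707 and 1.11 FPKM. *Jun* responds to dissociation of tissue as well as to growth signals, and its levels spread widely among the old cells. Cell cycle genes overlapped between the ages in sum, at 148 to 1091 FPKM for S phase genes at 24 months against 841 and 475 FPKM, and at 733 to 1408 FPKM for G2/M genes against 1370.0 and 665 FPKM. *Rrm2*, the small subunit of ribonucleotide reductase, was at 217 FPKM in that cell, at 5.27 FPKM in the other young cell and at 2.01 to 4.70 FPKM at 24 months. Of 15 S phase genes that passed, *Prim1* was counted as higher, at 1.01 to 207 FPKM against 0 and 0.156 FPKM, and *Rrm2* and *Pola1* as lower. Of 35 G2/M genes *Hjurp* was counted as higher and *Cks2*, *Cdca8* and *Cenpa* as lower, all at values of at most 13.8 FPKM. *Mki67* was at 16.9 FPKM in the shallow cell and at most 0.508 FPKM in the other 6. Activated neural stem and progenitor markers summed to 265 FPKM in that cell, 23.8 FPKM in the deeper young cell and 8.47 to 42.7 FPKM in the old cells. The part of such RNA in the values of the shallow cell was not tested.

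Among protein-coding genes listed above 0 in all 7 cells, the largest gaps belonged to *Spock1* and *Map1b*. *Spock1*, a testican proteoglycan of the extracellular matrix, was at 415, 394, 289, 219.9 and 1021 FPKM at 24 months and at 0.511 and 0.506 FPKM at 1 month, a difference of 8.07. *Map1b* (listed as *Mtap1b*), a microtubule protein of growing neurites that oligodendrocytes also make, was at 339.6, 487, 333, 353 and 325 FPKM against 0.181 and 1.73 FPKM, a difference of 7.66. *Map1b* varied less among the old cells than *Spock1* did. *Map1b* was also high in neuroblasts, at 0.756 to 2150 FPKM in the *Dlx2*+/*Dcx*+ cells, whereas *Spock1* reached at most 19.6 FPKM in the other 15 cells. *Aven*, an inhibitor of caspase activation, was at 257, 312, 444, 268 and 186 FPKM, and reached at most 1.51 FPKM in the young cells. The next 7 were *Rbm26*, *Jun*, *Srrm1*, *Ndufa2*, *Magt1*, *Ptpra* and *Aif1l*, with differences from 6.00 down to 5.09. *Rbm26* was listed at 1.36e-05 FPKM in the shallow young cell, far below 1 fragment. *Magt1*, a magnesium transporter and oligosaccharyltransferase subunit, was the most even of these, at 229.8 to 876 FPKM against 7.67 and 6.43 FPKM.

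Among genes listed at 0 in both young cells, the highest minimum at 24 months was that of *Mrpl58* (listed as *Ict1*), a release factor of mitochondrial ribosomes, at 679, 271, 278, 176 and 319.9 FPKM. *Map2k2*, the MEK2 kinase upstream of Erk, followed at 488, 107, 99.7, 253 and 76.0 FPKM. *Dguok*, the kinase that supplies deoxynucleotides for mitochondrial DNA, was at 26.5 to 85.1 FPKM, and *Ilvbl* at 17.0 to 429.6 FPKM. The fifth gene was *Cox10*, needed for heme A of cytochrome oxidase, at 14.1 to 201 FPKM. These 5 genes were read in every old cell and in neither young cell.

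The genes with the largest gaps in the other direction were mostly uneven among the old cells. *Mdk*, the growth factor midkine, was the exception, at 3.91, 1.48, 2.89, 1.87 and 3.95 FPKM at 24 months and at 159.9 and 126 FPKM at 1 month (difference -5.28). *Trrap*, a scaffold of histone acetyltransferases, was at 10.1, 0.274, 118, 1.20 and 1.29 FPKM against 649 and 315 FPKM (-6.21). *Snrpc*, a protein of the U1 splicing particle, was at 0.455, 1.81, 6.25, 167 and 1.65 FPKM against 482 and 217 FPKM. The other 7 were *Usp16*, *Gpsm1*, *Ilf2*, *Nmt2*, *Inpp5f*, *Mccc1* and *Paf1*, with differences from -6.19 to -4.26. *Usp16*, *Gpsm1*, *Ilf2* and *Mccc1* overlap genes on the opposite strand that these cells also express, as do *Jun* and *Ptpra* among the higher genes, and *Rbm26* overlaps one on its own strand, so their values are uncertain.

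**Figure D4:**
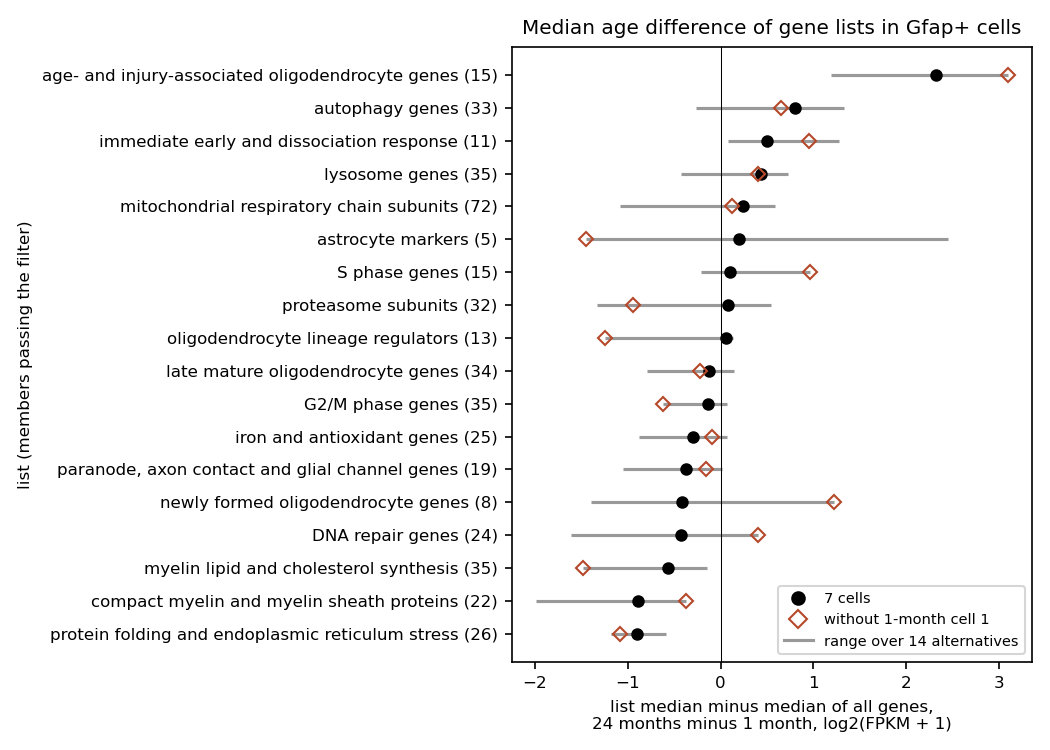
Median age difference of gene lists with at least 5 genes that passed, minus the median of all 6256 genes, 24 months minus 1 month on the log2(FPKM + 1) scale. Filled points use all 7 cells, open diamonds leave out the shallow young cell and lines span the 14 alternatives; the age and injury list lies highest at 2.32, and the protein folding and compact myelin lists lowest at -0.89 and -0.88.

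To show the sequence in front of genes that differed, the 250 bases upstream of the start are given for *Spock1*, whose gap was the largest of the genes listed above 0 in all cells, for *Apod*, and for *Serpina3n* (RefSeq, GRCm38.p6, 5′ to 3′ on the gene's strand). Both strands were searched for 5 motifs, of AP-1 (TGANTCA), the interferon-stimulated response element, SREBP (TCACNCCAC) and SOX factors (ACAAAG) and the TATA box (TATAAA), and capitals mark matches. The *Spock1* window, chr13:57908333-57908582, held a match to the AP-1 pattern 115 bases before the start. The N of that pattern allowed any middle base, which is A in *Spock1* (TGAATCA), so the match is a loose one. The *Apod* window, chr16:31314809-31315058, held a SOX match 84 bases before the start. The *Serpina3n* window, chr12:104406458-104406707, held none of the 5.
Spock1: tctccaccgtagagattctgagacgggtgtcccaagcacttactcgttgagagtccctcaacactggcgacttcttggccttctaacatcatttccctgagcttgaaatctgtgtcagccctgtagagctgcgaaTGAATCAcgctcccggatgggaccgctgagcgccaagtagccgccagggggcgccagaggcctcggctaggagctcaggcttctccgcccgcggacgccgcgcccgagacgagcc
Apod: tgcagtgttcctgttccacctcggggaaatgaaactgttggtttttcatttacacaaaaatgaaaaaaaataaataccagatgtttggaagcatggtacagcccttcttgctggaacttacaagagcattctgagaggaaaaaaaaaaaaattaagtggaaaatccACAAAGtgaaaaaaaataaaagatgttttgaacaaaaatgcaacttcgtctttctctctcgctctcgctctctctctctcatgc
Serpina3n: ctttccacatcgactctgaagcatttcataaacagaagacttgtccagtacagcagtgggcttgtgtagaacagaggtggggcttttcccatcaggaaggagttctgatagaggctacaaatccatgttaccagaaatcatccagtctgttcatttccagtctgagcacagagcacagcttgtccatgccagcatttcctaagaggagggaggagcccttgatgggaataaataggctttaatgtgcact

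Such matches were no more than a description. An AP-1 match stood in 6.87% of all 27025 promoters, in 3.84% of those of genes that passed the filter and in 4.52% of the 221 promoters of genes counted as higher. For SOX the shares were 16.5%, 10.7% and 11.8%.

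The tissue samples gave a replicated measure of the same genes, at 18 months against 3 weeks. In tissue, fewer cells of a type and less RNA per cell cannot be told apart, and the p-values there measure the spread between the 3 samples of each age. With limma on log2(FPKM + 1), 308 of 12287 genes (2.51%) rose and 297 (2.42%) fell at adjusted p under 0.05. Of the 281 genes higher in old *Gfap*+ cells 207 were tested in tissue, of which 5 rose (2.42%) and 4 fell (1.93%). Of the 234 lower genes 166 were tested, of which 3 rose (1.81%) and 7 fell (4.22%). The 7 were *Cdca8*, *Cenpa*, *Pbk*, *Rrm2*, *Dlx1*, *Hes6* and *Elovl1*, named after their values were seen, of which the first 4 are genes of dividing cells and *Dlx1* and *Hes6* of neuronal progenitors. *Pbk*, *Hes6* and *Rrm2* were high mainly in the shallow young cell, at 280, 358 and 217 FPKM against 8.27, 5.64 and 5.27 FPKM in the deeper one. In tissue the calls of *Hes6* and *Rrm2* held without sample 1 of 18 months but were lost with each of the other 5 samples left out, and that of *Cenpa* was lost without samples 1 and 2 of 3 weeks (limma adjusted p = 0.0535 and 0.0694).

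*C4b* was the clearest gene of both measures. It was at 43.0, 45.7 and 44.1 FPKM in tissue of 18 months and at 10.6, 8.10 and 10.7 FPKM at 3 weeks, and rose by 2.08 on the log2 scale (SE 0.13, limma adjusted p = 0.00224), a call kept with each of the 6 samples left out. *Serpina3n* rose from 5.92 ± 0.989 to 16.6 ± 3.36 FPKM (SD, n = 3 each), by 1.34 (SE 0.19, limma adjusted p = 0.0232). That call was lost without sample 2 of 18 months (0.0803) and without samples 1, 2 or 3 of 3 weeks (0.0799, 0.0974 and 0.0562). The other 3 genes that were higher in the old cells and rose in tissue were *Appl2*, *Sec11c* and *Serpinb6a*, named after their values were seen, whose calls held without sample 1 of 18 months and were lost with each of the other 5 samples left out. *Sparc* and *Apod* were not called in tissue, with log2 differences of -0.38 (adjusted p = 0.108) and 0.82 (adjusted p = 0.188) by limma.

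*Mpzl1*, higher in the old *Gfap*+ cells, fell in tissue from 29.8 ± 1.47 to 11.8 ± 0.196 FPKM (log2 difference -1.27, SE 0.10, limma adjusted p = 0.0036). The other 3 genes higher in the old cells that fell in tissue, named after their values were seen, were *Marcksl1*, *H2afv* and *Llgl1*. *Marcksl1* fell from 357 ± 36.8 to 75.5 ± 16.1 FPKM (-2.25, limma adjusted p = 0.00411), a call kept with each sample left out. The call of *H2afv* was lost without samples 2 and 3 of 18 months and sample 2 of 3 weeks, and that of *Llgl1* with each sample but sample 1 of 18 months left out. The 3 genes lower in the old cells that rose in tissue were *Btbd19*, *Pltp* and *Slc9a8*, by 1.29, 0.69 and 0.74, and these calls were lost with each sample left out, except for *Pltp* without sample 1 of 18 months. *Elovl1* was lower in the old cells, at 389, 802, 749, 455 and 0 FPKM against 815 and 1027 FPKM. The nearest cells of the ages were thus close, and much of the difference came from cell 5 of 24 months at 0. In tissue *Elovl1* fell from 59.0 ± 3.07 to 23.7 ± 3.21 FPKM (-1.29, limma adjusted p = 0.00842). That call missed the limit without sample 2 of 3 weeks (0.0529). *Srebf1* was at 46.0 ± 4.75 FPKM in tissue of 18 months and at 22.7 ± 5.30 FPKM at 3 weeks, which did not pass (1.01, limma adjusted p = 0.0525) and had the opposite sign to the cells. *Cldn11* and *Mbp* fell in tissue by 1.70 and 3.44 on the log2 scale (limma adjusted p = 0.00244 and 0.00164), each with every sample left out in turn, while in the cells the ages of both overlapped. By list, 9 of 31 tested age and injury genes rose, 8 of 21 compact myelin genes fell while 2 rose, and 7 of 29 lipid and cholesterol genes fell. Over all tested genes 2.51% rose and 2.42% fell. These lists were written with earlier results of these data known, so their counts are a description only. The 9 were *C4b*, *Serpina3n*, *H2-D1*, *H2-K1*, *Klk8*, *Plin4*, *Psmb8*, *Psmb9* and *Sgk1*. Of these only *C4b* and *Serpina3n* were counted as higher in the *Gfap*+ cells. Of 32 late mature genes 5 rose (*Hopx*, *Klk6*, *Pex5l*, *Ptgds* and *Trf*) and 2 fell, and with 1 sample left out 0 to 4 rose, at most 2 except without sample 1 of 18 months, and 1 fell. With 1 sample left out the age and injury count was 3 to 9, with 3 without sample 2 of 18 months or without samples 1 or 2 of 3 weeks, and 4 without sample 3 of 3 weeks. Genes of other stages and cell types fell in the same samples, with 3 of 14 precursor genes, 5 of 15 newly formed genes, 4 of 14 neuroblast markers, 4 of 14 activated stem and progenitor markers, 9 of 31 S phase genes and 18 of 38 G2/M genes, and 1 of 17 microglia markers, *Ctss*, rose. Their part in the list counts was not tested. The call of *Ctss* was lost without sample 3 of 18 months (limma adjusted p = 0.0654). It was also lost without samples 1, 2 or 3 of 3 weeks (limma adjusted p = 0.0595, 0.0819 and 0.0676). The compact myelin count of genes that fell was 6 to 7 with 1 sample left out, and the lipid and cholesterol count 2 to 6, lowest without sample 2 of 18 months or sample 2 of 3 weeks, and 4 and 3 without samples 1 and 3 of 3 weeks. The G2/M count was then 7 to 15, at 10 without sample 2 of 18 months and at 9, 7 and 11 without samples 1, 2 and 3 of 3 weeks. The S phase count was 2 to 7, at 3 and 5 without samples 2 and 3 of 18 months and at 2, 2 and 3 without those of 3 weeks. Newly formed genes that fell were 3 without any 1 sample but sample 3 of 3 weeks, precursor genes 2 to 3, neuroblast markers 1 to 4, lowest without sample 2 of 18 months and at 2 without each of 3 weeks, and progenitor markers 0 to 3, at most 2 except without sample 1 of 18 months.

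**Figure D5:**
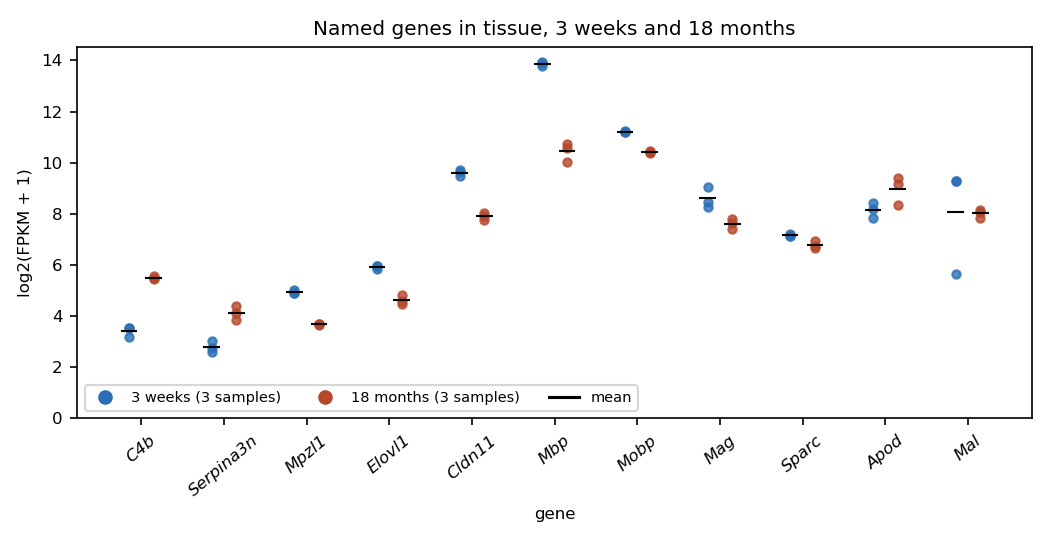
Level of named genes in the 6 tissue samples as log2(FPKM + 1), 3 samples of 3 weeks and 3 of 18 months, each point 1 sample and each short line the mean. *C4b* and *Serpina3n* are higher at 18 months, and *Mpzl1*, *Cldn11* and *Mbp* lower, with no overlap of the ages.

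Set beside the other cell types, the ages overlapped for *C4b* and *Sparc* in *Prom1*+ and in *Dlx2*+/*Dcx*+ cells, given here as a description without test. *C4b* was at most 1.47 FPKM in the 6 *Prom1*+ cells and 0.640 FPKM in the 9 *Dlx2*+/*Dcx*+ cells at either age. *Sparc* reached 274 and 219.5 FPKM in the highest cell of these types. Of 33 named genes counted as higher in *Gfap*+ cells, 3 were also higher at 24 months without overlap in *Prom1*+ cells, where 4.12% of the 6256 genes were, and 0 in *Dlx2*+/*Dcx*+ cells, where 0.783% were. These 3 were *Mrpl58*, at 282 to 420.0 FPKM at 24 months against 0.71 to 109 FPKM, *Ndufs4*, at 69.5 to 87.8 FPKM against 8.74 to 43.3 FPKM, and *Uqcrc2*, at 189 to 228 FPKM against 75.4 to 116 FPKM. Of 39 named genes counted as lower, 0 were lower without overlap in *Prom1*+ cells (4.56% of all genes were) and 1 was in *Dlx2*+/*Dcx*+ cells (1.31%). That gene was *Mdk*, at 0 to 301 FPKM at 24 months against 509 to 1411 FPKM. *Aven* in *Dlx2*+/*Dcx*+ cells and *Mpzl1* in *Prom1*+ cells went the opposite way to the *Gfap*+ cells without overlap.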

How the data were processed

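RNA was measured in 22 single cells (Smart-seq2) and 6 tissue samples. The authors deposited FPKM values, aligned to GRCm38 with HISAT2 and estimated with StringTie; versions and annotation release are not given in the sources used here. featureCounts is named in the submitters' notes, but no counts were used, so the DESeq2 test of the study could not be applied. Identifiers were matched to GENCODE M21 (32929 of 37974, 86.7%), and the authors' own locus column was left aside. The 7 *Gfap*+ cells were grouped by their labels. The members and gene lists were chosen with earlier results of these data known, and the 25 lists include the S and G2/M phase lists of Seurat 5.3.0.

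Differences are of mean log2(FPKM + 1), 24 months minus 1 month. This scale understates the change of low genes. Fragments were estimated from the most common low value of FPKM times length in genes whose only transcript spans 2000 bases or more, taken as 1 fragment, which limits the precision of low values. Intervals were not computed, because the depth is only estimated.

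Tissue was fitted with limma 3.58.1 (R 4.3.3, lmFit and eBayes with trend, Benjamini-Hochberg adjustment) over genes that reached an FPKM of 1 in 3 or more of the 6 samples. The counting rule and the tissue fit were tested on simulated data. Other steps used Python 3.11.15 with pandas 2.3.3, scipy 1.17.1, numpy 2.4.6 and, for figures, matplotlib 3.10.9.

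Named were the markers given for the cells and genes the study names for them. Named too were the 10 protein-coding genes with the largest gap in each direction (above 0 in all 7 cells, above 1 in size also without the shallow cell). So were the 5 at 0 in both young cells with the highest minimum in the old ones. No lower gene was at 0 in all old cells, so the reverse rule named none. The rest were up to 5 counted members of each list per direction, and up to 5 of the most abundant members of cell type and myelin lists (137 in all). Exceptions are marked, and some genes of these kinds are left out here. Alternatives were a pseudocount of 0.1, no filter, TPM scaling, scaling without mitochondrial genes, quantile normalization, the median over cells, each cell or sample left out, the replicate number as a block in tissue, and a floor of 3 fragments added after the data were examined. Every column of the cell and tissue tables used here belonged to a sample of the series.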

Additional observations from a re-analysis of the deposited data

Results flagged for a closer look

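Among 116 named genes, 1 of the 5 cells of 24 months stood apart from the other 4 by Dixon's criterion in 13 genes given here. Chance alone gives about 1 in 20 groups when values are normally distributed, which FPKM of single cells with many zeros need not be. For *Zfp24* and *Syvn1* the other 4 cells were at 0, so that any value above 0 met the criterion. Cell 5 was the lowest for *Mag* (924 FPKM), *Cox10* (14.1 FPKM) and *Elovl1* (0 FPKM) and the highest for *Zfp24* (4.12 FPKM). Cell 4 was the highest for *C4b* (1492 FPKM) and *Syvn1* (1.23 FPKM) and the lowest for *Atp5j2* (6.29 FPKM) and *Aldoc* (0 FPKM). Cell 2 was the highest for *Map1b* (487 FPKM) and the lowest for *Hmox2* (64.3 FPKM). Cell 3 was the lowest for *Serpina3n* (1.09 FPKM) and *Cryab* (7975 FPKM), and cell 1 the highest for *Srebf1* (1.07 FPKM).

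In 2 genes the cells of another type went the opposite way to the *Gfap*+ cells without overlap of the ages. *Aven* was higher at 24 months in *Gfap*+ cells and lower in *Dlx2*+/*Dcx*+ cells (difference of mean log2(FPKM + 1) -0.65, at values of at most 1.58 FPKM). *Mpzl1* was higher at 24 months in *Gfap*+ cells and lower in *Prom1*+ cells (-3.60). Neither difference between the cell types was tested.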

How the results depend on the processing

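Of 116 named genes under 14 alternatives (1624 values), 1538 moved by less than the spread among the old cells, 86 moved by more, and 0 of the genes counted as higher or lower turned in sign. Of the named genes, 23 of 33 higher and 24 of 39 lower ones were counted under all 14. Against 281 higher and 234 lower genes, quantile normalization gave 362 lower genes and the floor of 3 fragments 184 higher ones. Leaving out 1 cell gave 395 to 946 higher and 312 to 950 lower genes: 593 and 900 without the shallow young cell, 946 and 950 without the deeper young cell, and 462 higher without cell 4 of 24 months. By construction fewer cells overlap less often, so these counts grow with each cell removed. No paired analysis was possible for the cells because the labels tie none of them to an animal and nothing else pairs them.

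In tissue, 605 genes were called. Leaving out 1 sample gave 134 to 719: 185 and 258 without samples 2 and 3 of 18 months and 199, 134 and 195 without samples 1, 2 and 3 of 3 weeks. Same-numbered samples correlated at -0.10, -0.01 and -0.10 in their deviations, so the numbers do not pair them, and with the replicate block 17 genes were called. The cause of these shifts was not tested. For the 142 higher genes with no young cell above 1 FPKM the young values rest on few fragments, and the part of depth in them was not tested.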
